A study of Drosophila melanogaster with 4 samples.

Results

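Antimicrobial peptide genes were followed in trx mutant larvae of Drosophila melanogaster, in which log ratios were looked up for 10 genes by their symbols: the attacin genes AttA, AttB, AttC and AttD, the cecropin genes CecA1 and CecC, the defensin gene Def, the diptericin gene DptB, the drosomycin gene Drs and the metchnikowin gene Mtk. Of these 10, among 12057 genes named by the probes of the array, 6 had a probe, with 1 probe each (AttB, AttD, Def, DptB, Drs and Mtk). AttA, AttC, CecA1 and CecC have no probe in the platform annotation and were not analysed here. A value in both biological replicates, which the test needs, was present for 5 of the 6, and AttD had values in replicate 2 alone. The mutant larvae were w1118;+;trxE3/trxB11, a combination of 2 alleles of trithorax, which encodes a histone methyltransferase that modifies lysine 4 of histone H3. They were compared with w1118;+;+ larvae of an isogenic line, so that both genotypes carry the w1118 mutation. RNA came from whole larvae of the third instar, raised at 21ºC on food with bromophenol blue, which marks their stage, and Tb+ animals were selected. Chromosomes X, Y and 2 of the mutant stocks had been replaced by those of the isogenic line, whereas chromosome 3, which carries the trx alleles, is not listed among the replaced ones. Def, AttB, DptB and Mtk lie on 2R, Drs lies on 3L and AttD on 3R.

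There were 4 two-color arrays of 2 biological replicates, which are different extractions of mutant RNA, with 2 arrays per replicate and the dyes swapped between them. Wild-type RNA was a single pool that served as the reference on every array. Arrays 1 and 2 belong to replicate 1 and arrays 3 and 4 to replicate 2, and the mutant was labeled with Cy3 on arrays 1 and 3 and with Cy5 on arrays 2 and 4. Each value is a log2 ratio of mutant over wild type, in which 1 stands for 2-fold higher in the mutant. Whole-array medians lay between -0.03 and -0.01. The log2 ratio of trx itself was 0.22, 0.13 and 0.28 on arrays 2 to 4 with no value on array 1, and since the position of its probe relative to the lesions of the alleles is not given in the sources used here, this does not check the genotype. Because RNA came from whole larvae, more transcript per cell and more cells that make the transcript cannot be told apart.

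In flies, microbial cell wall fragments and fungal proteases switch on the Toll and Imd pathways, which end in transcription factors of the NF-kappaB family. Dif and Dorsal act for Toll and Relish for Imd. Their targets in the fat body include short secreted peptides that kill bacteria and fungi in the hemolymph, and gut, tracheal and other epithelia make some of them locally. Drs is the usual readout of Toll in the fat body and the diptericins are that of Imd, while Mtk responds to both.

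In trx mutant larvae, all 21 values of the measured antimicrobial peptide genes on the 4 arrays were above 0, and 16 of them were at least 2-fold higher. Each measured gene was thus above 0 on every array with a value, as were 28.3% of all 10041 genes tested. Arrays of a replicate share RNA, so these values are not independent, and AttD had values in replicate 2 alone. All 5 members tested had a mean above 0, which 45.9% of all genes had, and the mean of 4 of them was at least 2-fold higher, as for 2.71% of all genes. Def and AttB were at least 2-fold higher on each array with a value, as were 1.32% of all genes. Def and AttB rose by 7.35-fold and 4.74-fold, whereas Drs, DptB and Mtk had means of 3.04-fold, 2.35-fold and 1.90-fold that did not pass the test. A gene was called if it differed by 2-fold or more and its adjusted p, by limma on n = 2 biological replicates, was under 0.05. This held for 2 of the 5 genes tested, both higher, against 1.57% of all genes tested called higher, 2.52% lower and 4.09% in either direction. The median log2 fold change of the 5 genes was 1.60, against -0.02 over all genes tested.

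**Figure D1:**
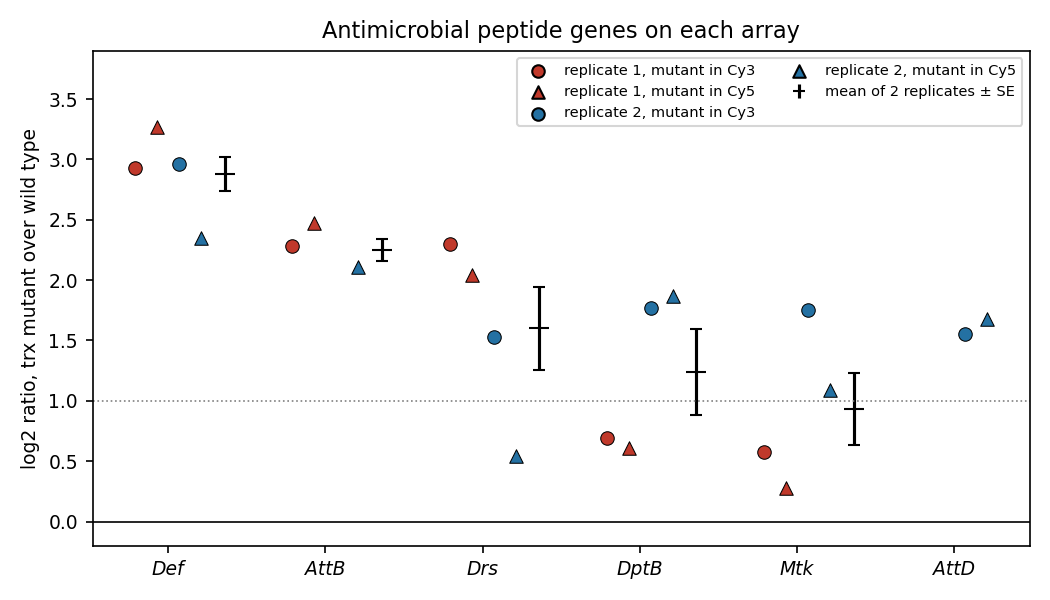
Log2 ratio of trx mutant over wild type (vertical axis) for the 6 measured antimicrobial peptide genes (horizontal axis). Circles are arrays with the mutant in Cy3 and triangles those with it in Cy5, red is replicate 1 and blue is replicate 2, and the black bar is the mean of the 2 replicates with its moderated standard error. The dotted line marks 2-fold. Points of DptB and Mtk from replicate 2 lie above those from replicate 1, and Drs has the opposite order.

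Def encodes the defensin of the fly, a peptide active mainly against Gram-positive bacteria. Its log2 ratios were 2.93 and 3.27 in replicate 1 and 2.96 and 2.35 in replicate 2, so that the replicates overlap and all arrays were more than 4-fold higher. The log2 fold change was 2.88 (standard error 0.142, 95% interval 2.41 to 3.35, adjusted p = 0.0195 by limma), which placed Def at rank 33 from the highest of the 10041 genes.

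AttB encodes an attacin, a glycine-rich peptide active against Gram-negative bacteria. It had 2.28 and 2.47 in replicate 1 and 2.11 in replicate 2, where array 3 has no value, and the log2 fold change was 2.25 (standard error 0.0912, 95% interval 1.94 to 2.55, adjusted p = 0.0192 by limma, rank 66). These 3 values were the closest to one another among the members tested, and replicate 2 rests on array 4 alone, without which AttB could not be tested. AttA is an adjacent gene of very similar sequence, and whether the AttB probe also takes up AttA transcripts was not tested.

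AttD, an attacin gene whose product lacks the signal peptide of the secreted attacins, had 1.55 and 1.68 on the arrays of replicate 2. Both are above 2-fold and differ little between dyes. It has no value in replicate 1 and was not tested.

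DptB encodes a diptericin, active against Gram-negative bacteria. The log2 ratios were 0.69 and 0.61 in replicate 1, and 1.77 and 1.87 in replicate 2. The replicates did not overlap, and the 2 dyes within a replicate nearly coincided. The log2 fold change of 1.24 had a standard error of 0.354 (95% interval 0.06 to 2.41) and did not pass the test (adjusted p = 0.121 by limma).

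Among the antifungal peptides, Drs encodes drosomycin. It had 2.30 and 2.04 in replicate 1, and 1.53 and 0.54 in replicate 2. Here replicate 1 was above replicate 2 on every array, and the lowest value was that of array 4. Drs was not called, at a log2 fold change of 1.60 (standard error 0.341, 95% interval 0.47 to 2.73, adjusted p = 0.0809 by limma). Without array 4 it was called, with 1.85 (adjusted p = 0.0265 by limma). With the 4 arrays taken as independent samples, which ignores that pairs share RNA, Drs and DptB were called as well and 4 of 5 members passed, against 2.39% of all genes.

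Mtk encodes metchnikowin, a proline-rich peptide active against fungi and Gram-positive bacteria. The values were 0.58 and 0.28 in replicate 1, and 1.75 and 1.09 in replicate 2, again without overlap and with replicate 2 the higher one. The log2 fold change was 0.93 (standard error 0.300, 95% interval -0.07 to 1.92, adjusted p = 0.143 by limma), and the interval includes 0.

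In order of their mean the genes were Def, AttB, Drs, DptB and Mtk. The 95% intervals of each pair of neighbors in this order overlap. Array by array, the median of the members with a value was 2.28 and 2.04 in replicate 1, and 1.75 and 1.78 in replicate 2. The lowest member was Mtk on arrays 1 and 2 and Drs on arrays 3 and 4. Members at least 2-fold higher numbered 3 of 5 on arrays 1 and 2, 5 of 5 on array 3 and 5 of 6 on array 4. AttD has values on arrays 3 and 4 alone and AttB has none on array 3. These medians and counts are therefore not of the same genes on every array. The share of all genes at least 2-fold higher on a single array was not counted.

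The 2 extractions of mutant larvae were then set against each other in a fit of the 4 arrays with a term for the replicate and a term for the dye. Its error comes from the spread between hybridizations, so it compares these 2 extractions and says nothing of the genotype. A value on every array was available for Def, DptB, Drs and Mtk. Drs was higher in replicate 1, by 1.13 on the log2 scale (standard error 0.175, 95% interval 0.69 to 1.57, adjusted p = 0.0223 by limma). DptB and Mtk were lower in replicate 1, with differences of -1.17 (standard error 0.0862, 95% interval -1.39 to -0.96, adjusted p = 0.00326) and -0.99 (standard error 0.110, 95% interval -1.27 to -0.71, adjusted p = 0.00887). For Def the difference was 0.45 with a 95% interval of -0.11 to 1.01 (standard error 0.221, adjusted p = 0.335). Thus 3 of 4 members differed between the extractions, against 8.0% of 7262 genes with a value on all arrays, 3.55% with replicate 1 the higher and 4.45% with replicate 2 the higher. Without the dye term DptB alone differed (adjusted p = 0.00942, against 0.236 for Drs and 0.159 for Mtk), when 2.71% of genes did.

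**Figure D2:**
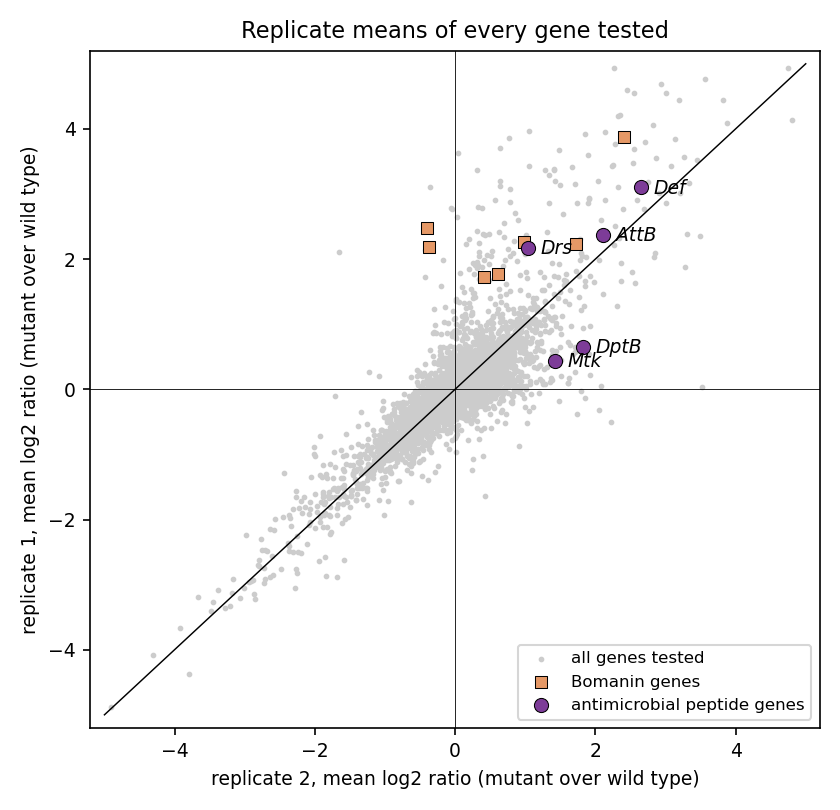
Mean log2 ratio of trx mutant over wild type in replicate 1 (vertical axis) against replicate 2 (horizontal axis) for every gene tested (gray), the 7 Bomanin genes tested (orange squares) and the 5 antimicrobial peptide genes tested (purple circles). The line marks equal ratios. Def and AttB lie near the line, Drs lies on the side of replicate 1 with the Bomanin genes, and DptB and Mtk lie on the side of replicate 2.

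For the dye, no member passed the same threshold, which does not show that the dye had no effect. With the mutant in Cy3, Drs was higher by 0.63 (standard error 0.175, adjusted p = 0.136 by limma) and Mtk by 0.48 (standard error 0.110, adjusted p = 0.0980), while for Def and DptB the difference between dyes was 0.13 and -0.01. None of these 4 passed, and 2.62% of all genes did. The 2 arrays of a replicate carried the same amplified mutant RNA and the same amplified wild-type RNA, and wild-type RNA was amplified 2 times, so a difference between mutant extractions and one between amplifications of the reference cannot be told apart.

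Bomanins are short secreted peptides induced through Toll, which protect flies against fungi and Gram-positive bacteria. Of 12 Bomanin genes 7 were tested, and all 7 had a mean above 0, as did 45.9% of all genes tested. BomS6 and BomBc3 were called higher, against 1.57% of all genes tested. BomS6 had 3.67 and 4.07 in replicate 1 and 2.86 and 1.95 in replicate 2 (log2 fold change 3.14, standard error 0.440, adjusted p = 0.0493 by limma), and BomBc3 had 2.01 and 2.47 against 1.61 and 1.84 (log2 fold change 1.98, standard error 0.160, adjusted p = 0.0284). BomS4, BomT2 and BomS5 had 1.62, 1.19 and 1.07 without passing (adjusted p = 0.0938, 0.125 and 0.168). For all 7 the log ratio was higher in replicate 1 in the fit with the dye term, the side on which Drs lies. This held for 3.55% of all genes with a value on all arrays. BomS2 and BomBc2 had the largest such differences, 2.87 and 2.57 (adjusted p = 0.000855 and 0.000800 by limma). BomS2 had 2.41 and 2.53 in replicate 1 against -0.28 and -0.51 in replicate 2, and BomBc2 had 2.13 and 2.25 against -0.35 and -0.41, so that both were above wild type in replicate 1 alone.

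**Figure D3:**
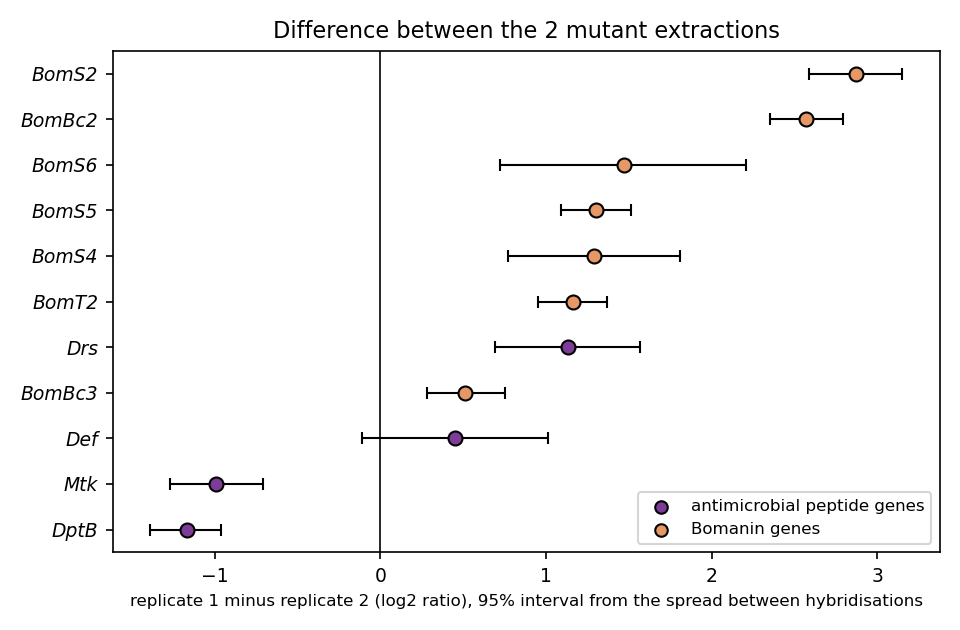
Difference of the log2 ratio between replicate 1 and replicate 2 (horizontal axis, replicate 1 minus replicate 2) for the 4 antimicrobial peptide genes (purple) and 7 Bomanin genes (orange) with a value on all 4 arrays. Bars are 95% intervals from the spread between hybridizations. Mtk and DptB lie below 0, the interval of Def includes 0, and Drs lies among the Bomanin genes.

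Some marker genes of tissues also differed between the extractions, in both directions. Of all genes with a value on all arrays 8% differed, 3.55% with replicate 1 the higher and 4.45% with replicate 2 the higher. For the mutant over wild type, 1.57% of all genes tested were called higher and 2.52% lower. Of 8 midgut markers 5 were tested, and the log ratio of all 5 was higher in replicate 1, with a range of 0.21 to 3.96 there and of -0.13 to 2.56 in replicate 2. For 3 of the 4 with a value on all arrays the difference passed, as for the digestive enzyme genes alphaTry (3.10 and 3.77 against 1.09 and 1.03) and Mal-A1 (3.65 and 4.28 against 1.15 and 0.97). Of 8 fat body markers 5 were tested, with a range of -0.51 to 4.09 in replicate 1 and of -0.72 to 3.87 in replicate 2, and 4 of them had the larger value in replicate 1, as did 5075 of all 10041 genes tested. Of the 2 fat body markers with a value on all arrays, apolpp and Tsf1, 0 differed between the replicates. Tsf1 had 1.17 and 1.08 in replicate 1 against 0.83 and 0.26 in replicate 2 (difference 0.58, adjusted p = 0.062 by limma). Fbp2 has no value on array 4 and was not compared, with 1.68 and 1.67 against 0.48. Fbp1 had the opposite order, with 0.13 against 0.42. Of the 5 fat body means 4 were above 0, as were 45.9% of all genes tested, and the median was 0.83. In this list, Lsp2, a storage protein gene, was called higher in the mutant (log2 fold change 3.98, standard error 0.0797, adjusted p = 0.0142 by limma), while apolpp, the gene of the main lipid carrier of the hemolymph, fell by 0.61 (adjusted p = 0.0443), under 2-fold. In the midgut list, the protease gene Jon65Aiv was called higher (log2 fold change 3.13, standard error 0.343, adjusted p = 0.0378 by limma). Of 8 hemocyte markers 7 were tested and 0 were called, with ranges of -1.28 to 0.67 in replicate 1 and -0.63 to 0.65 in replicate 2. Pxn was higher in replicate 1 by 0.55 (adjusted p = 0.0173) and He was lower there, with a difference of -0.65 (adjusted p = 0.0267). In the salivary gland list 1 of 5 genes tested was called, the glue gene Sgs5 (log2 fold change 3.78, standard error 0.465, adjusted p = 0.0431 by limma), while 2 of the 5 means were above 0 and the median was -0.02. The salivary genes ng1 and ng2 had -0.89 and -1.18 without passing (adjusted p = 0.155 and 0.119), and both were lower in replicate 1, with differences of -1.01 and -1.11 (adjusted p = 0.00621 and 0.00896). All 5 muscle markers tested differed between the replicates. Act87E, up and Tm2 were lower in replicate 1 (differences of -0.71, -0.65 and -0.49), the side on which DptB and Mtk lie, and bt and Mlc2 were higher there (0.66 and 0.55). The array values of Mlc2 overlapped between replicates (-0.03 and 0.75 against -0.54 and 0.17). For this gene the difference between dyes, Cy3 minus Cy5, was -0.75 and passed as well (adjusted p = 0.0171 by limma). Of the muscle markers 0 were called in the mutant, and of 6 nervous system markers tested 0 were called and 0 of the 5 with a value on all arrays differed between the replicates. The part of these tissues in the values of the antimicrobial peptide genes was not tested.

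Of 15 other antimicrobial peptide genes, 5 were tested and Listericin, which encodes an antibacterial protein, was called higher, against 1.57% of all genes tested. It had 2.79 and 3.58 in replicate 1 and 2.74 and 2.76 in replicate 2 (log2 fold change 2.97, standard error 0.138, adjusted p = 0.0193 by limma). Because Listericin was among the genes from which the direction of the ratios was read, its sign is not an independent result. The other 4 were edin, an infection-induced gene, with 0.57 on 2 arrays (standard error 0.0821, adjusted p = 0.0515), and the drosomycin-like genes Drsl6, Drsl4 and Drsl1 with 0.25, 0.11 and -0.05. Drsl5, which lies in the same gene family as Drs, had 4.07 and 3.71 in replicate 2 and no value in replicate 1, as for AttD. It was singled out after its values were seen. The median of the 5 genes tested was 0.25. The cecropin genes CecA2 and CecB, DptA, Dro, Anp, BaraA1 and BaraA2 have no probe in the platform annotation and were not analysed here.

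**Figure D4:**
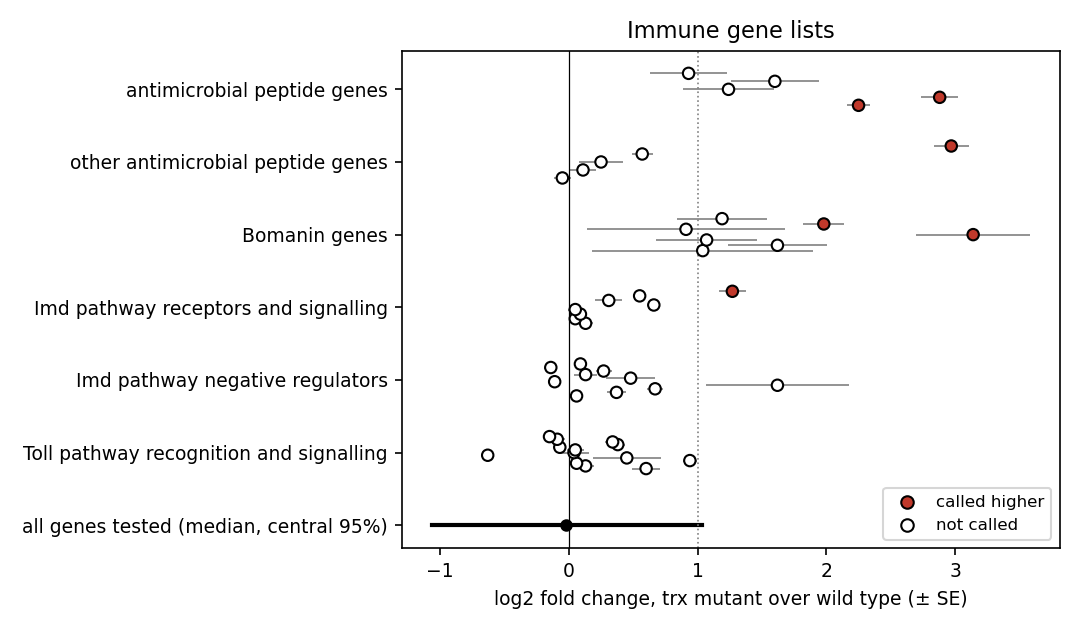
Log2 fold change of trx mutant over wild type (horizontal axis) for the genes tested in 6 immune lists, with moderated standard errors. Filled points were called higher at an adjusted p under 0.05 and at least 2-fold, and the black line at the bottom spans the central 95% of all genes tested, from -1.06 to 1.03, around a median of -0.02. Rel is the filled point among the Imd genes, and the Toll list has none.

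Genes that act upstream of the peptides were counted in 3 lists. In the list of Imd receptors and signaling components 8 of 13 genes were tested, and all 8 had a mean above 0, as did 45.9% of all genes tested. Against 1.57% of all genes tested, 1 of the 8 was called higher, Rel, which encodes Relish. It had 1.16 and 1.07 in replicate 1 and 1.61 and 1.24 in replicate 2 (log2 fold change 1.27, standard error 0.104, adjusted p = 0.0287 by limma), and the difference between replicates was -0.31 (95% interval -0.56 to -0.06, adjusted p = 0.151 in the fit with the dye term). Diap2, a ubiquitin ligase of the pathway, and key, a subunit of the kinase complex that acts on Relish, rose by 0.66 and 0.55 (adjusted p = 0.0273 and 0.0306 by limma) and stayed under 2-fold. With no minimum fold change 6.49% of all genes tested were higher at this adjusted p and 8.18% lower. The remaining components included Tab2 with 0.31, the receptor gene PGRP-LE with 0.13 and imd itself with 0.05, none of which passed, and the median of the list was 0.22.

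Of 13 negative regulators of Imd 10 were tested and 0 were called, against 4.09% of all genes tested called in either direction. The peptidoglycan recognition gene PGRP-SC2, whose product cleaves peptidoglycan, had 2.12 and 2.98 in replicate 1 and 0.68 and 0.71 in replicate 2 (log2 fold change 1.62, standard error 0.557, adjusted p = 0.155 by limma). Its difference between replicates, 1.86, passed in the fit with the dye term (adjusted p = 0.00776 by limma). PGRP-LF, a receptor that dampens the pathway, rose by 0.67 (adjusted p = 0.0307). PGRP-SB2 had 0.48 and PGRP-LB, an amidase, had 0.37, both without passing. The median of the list was 0.20.

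Of 17 genes of Toll recognition and signaling 13 were tested and 0 were called, against 4.09% of all genes tested called in either direction. Hayan, a serine protease gene, rose by 0.94 (standard error 0.0538, adjusted p = 0.0217 by limma) and spz, the gene of the Toll ligand, fell by 0.63 (standard error 0.0492, adjusted p = 0.0277), both under 2-fold. GNBP3, a recognition protein for fungal glucans, had 0.60 (adjusted p = 0.0654) and SPE, the protease that cleaves the ligand, had 0.45 (adjusted p = 0.304). SPE was 0.93 and 0.83 in replicate 1, against -0.05 and 0.08 in replicate 2, and this difference of 0.86 passed in the fit with the dye term (adjusted p = 0.00758). The receptor gene Tl had 0.05, with 0.28 and 0.66 in Cy3 and -0.35 and -0.41 in Cy5, and this difference between dyes passed (0.85, adjusted p = 0.0375). The gene of the inhibitor, cact, had -0.15 and Dif had -0.09, and the median of the list was 0.06.

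Genes were searched for whose array profiles lie nearest to the median of the measured members on the 4 arrays. The search covered 7258 other genes with a value on all arrays and used Euclidean distance. This median was 2.28, 2.04, 1.75 and 1.78 on arrays 1 to 4, over the members with a value on each. DptB and Mtk were higher in replicate 2 instead, so the median is not a profile that all members share. The nearest 5 were lcs (distance 0.311), the cytochrome P450 gene Cyp4ac3 (0.331), the maltase gene Mal-A5 (0.481), BomBc3 (0.538) and CG17738 (0.607). All 5 were called higher, with log2 fold changes between 1.88 and 2.02, which their nearness to this median fixes. This is a description over 4 arrays of 2 replicates.

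Since the genes deregulated in trx mutants are of interest for their position, the 3 nearest tested genes on each side of every measured member were looked up in the order of the NCBI gene table. Of these 36 neighbors 0 were called higher and 1 was called lower, against 1.57% and 2.52% of all genes tested, and their median log2 fold change was -0.05 with a range of -1.40 to 0.66. The lower one was CG14324 near AttD, with -1.40 (standard error 0.0881, adjusted p = 0.0231 by limma). CG14326, also near AttD, and sel, near Def, fell by 0.63 and 0.47 (adjusted p = 0.0406 and 0.0355), under 2-fold. Next to Def, magu and PIG-N had -0.21 and -0.05, and next to Mtk, Stacl and CG8180 had -0.06 and -0.24. Rpn6, a proteasome subunit gene beside AttB, had 0.25 (adjusted p = 0.400), and the neighbors jef and ave had -0.11 and -0.02. Near DptB, Jheh2, which encodes a juvenile hormone epoxide hydrolase, rose by 0.66 (standard error 0.0505, adjusted p = 0.0273 by limma), under 2-fold and with 5 protein-coding genes in between. Around Drs, kst and Ythdc1 had -0.17 and 0.06, and the drosomycin-like genes Drsl6 and Drsl1 are the next ones on one side. AttA and Dro, which lie beside AttB, are not among the genes with a probe.

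**Figure D5:**
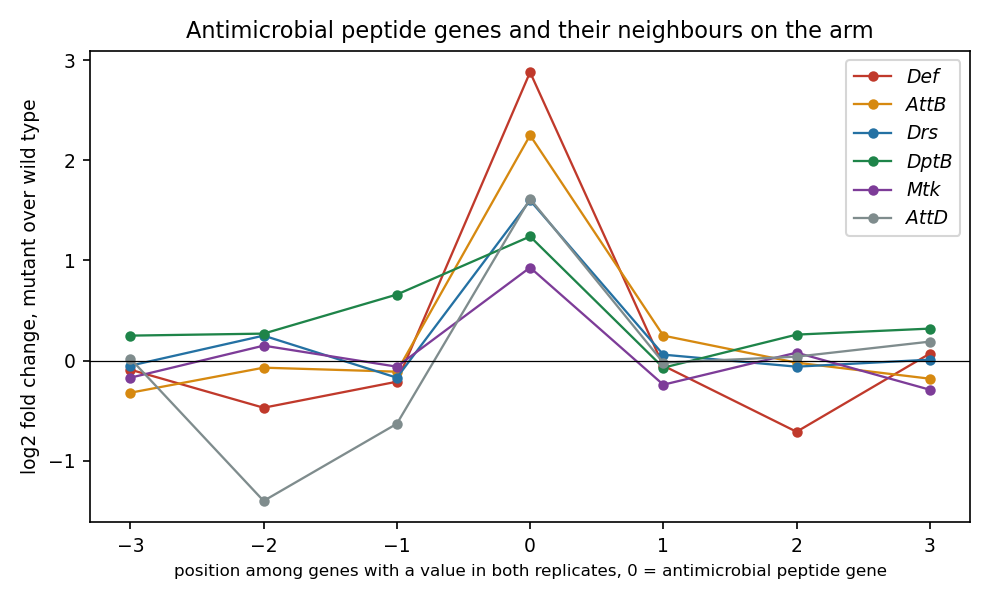
Log2 fold change of trx mutant over wild type (vertical axis) for each measured antimicrobial peptide gene at position 0 and for the 3 nearest tested genes on either side in gene order (horizontal axis). The point of AttD at position 0 is its mean in replicate 2, 1.62. Each line peaks at the antimicrobial peptide gene, and the neighbors lie between -1.40 and 0.66.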

How the data were processed

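For each spot the authors deposited a log2 ratio, read here as mutant over wild type. Printed oligonucleotide arrays were read with GenePix Pro. The authors dropped spots below quality thresholds, which carry no value, treated background with normexp in limma, normalized by OLIN and brought the 4 arrays to a common scale. Versions of limma and OLIN are not stated. Intensities were not used here, so the number of arrays limits the precision. All pairs of arrays correlated above 0 (Pearson's r from 0.710 to 0.904 across spots, which are not independent replicates), dye-swapped pairs included, so no sign was changed. That shows a shared direction only. Which genotype is on top was taken from the genes that the study lists as up-regulated in the mutant, Listericin among them, and log base 2 from its 2-fold threshold and the values.

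Genes were assigned to the 13163 of 16416 probes that name 1 gene, by the platform annotation and current NCBI symbols. Probes of a gene were averaged, followed by both arrays of each replicate. The replicate means were tested against 0 in limma 3.58.1 (R 4.3.3) with moderated variances and Benjamini-Hochberg adjustment over 10041 genes, and intervals use the same variances. The replicate and the dye were terms of a second limma fit on the 4 arrays. An exact sign permutation over 2 replicates cannot give a two-sided p below 0.5 and was not used. The control is 1 pool, so no p includes the variation among wild-type larvae, and whether the extractions came from separate cultures is not stated, so p-values cover the spread between these samples. Scripts were tested on simulated data. Named genes are all members, genes of the other immune lists that were called and up to 4 more per list by size of change, called markers, trx and the 5 nearest profiles. Neighbors by position, imd, Tl, cact, Dif, BomBc2, Drsl5 and the markers that were not called were named after their values were seen. The members and lists were chosen with earlier results of these data known. Alternatives covered the treatment of arrays, scaling, probes and thresholds. No protein, promoter or probe sequence was used here.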

Additional observations from a re-analysis of the deposited data

Results flagged for a closer look

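Over the 4 arrays, 2 of 37 immune genes with a value on each had an array far from the rest (gap over range above the critical value of Dixon's test), and chance flags about 1 in 20. Listericin had a gap of 0.940 of its range, since array 2 had 3.58 and the others were between 2.74 and 2.79. For key the share was 0.879, with 0.61 on array 3 and 0.53 to 0.54 on the others. No antimicrobial peptide gene of the members was among them.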

How the results depend on the processing

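Each value is already a ratio of mutant over wild type within 1 array, so no further pairing of samples was made. When each of the 4 arrays counted as an independent sample, and also with the biological replicate as a random block (the estimated correlation within a replicate was -0.11), 4 antimicrobial peptide genes were called higher instead of 2. Drs and DptB were the ones added (adjusted p = 0.0121 and 0.0179 for independent arrays, 0.0104 and 0.0170 with the block, by limma). With a correlation below 0, the block does not widen the error for arrays that share RNA. The standard error of Drs was 0.287 with the block, 0.294 for independent arrays and 0.341 in the main fit. For DptB it was 0.259, 0.258 and 0.354. The block fit is therefore not a stricter check than independent arrays, for which 2.39% of all genes were called higher. In both of these fits 5 Bomanin genes and 1 negative regulator of Imd were called higher. The share of all genes called in the block fit was not counted. With only genes measured on all 4 arrays, 1 antimicrobial peptide gene, Def, was called, since AttB has 3 values. Leaving out each array in turn gave 2 antimicrobial peptide genes every time, though not the same ones. They were Def and AttB without array 1, 2 or 3. Without array 4, AttB has no value in replicate 2 and was not tested, and Def and Drs were called. Under the same omissions between 1 and 2 Bomanin genes and between 0 and 1 Toll genes were called higher. Without array 3, and with probes naming several genes included, 1 Bomanin gene was called. With no minimum fold change 3 Imd components, 1 negative regulator and 1 Toll gene were higher and 1 Toll gene was lower. Of all genes tested, 6.49% were higher and 8.18% lower at that setting. Without the dye term 1 member differed between replicates. Of the log2 fold changes of the 5 members, 0 reversed in any alternative, single replicates and single dyes included. Def ranged from 2.65 to 3.10 and passed in 11 of 11 tested alternatives, and AttB ranged from 2.11 to 2.38 and passed in 9 of 9. Drs ranged from 1.04 to 2.17 and passed in 3 of 11, DptB from 0.65 to 1.82 in 2 of 11, and Mtk from 0.43 to 1.42 in 0 of 11. These alternatives are not independent checks. Each member has 1 probe, so the alternatives on probes left its log2 fold change as it was. The fits with independent arrays and with the block gave every member a lower adjusted p than the main fit. Where a cause is not stated, it was not tested.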
